A study of Mus musculus with 28 samples.

Results

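The RNA of 9 genes of the cells that surround the seminiferous tubule was followed through mouse testis and ovary by RNA-seq: the muscle-type genes Acta2, Myh11 and Tagln, and the fibroblast-type genes Dcn, Lum, Pdgfra, Col1a1, Col1a2 and Col3a1. They were chosen by name, with earlier results of these data known, as 9 of 37175 genes in the expression table. All 9 passed the filter of a mean of at least 0.1 RPKM in each of the 4 comparisons. Their RNA was most abundant in the whole ovary and, among testis libraries, in the sorted spermatogonia of wildtype mouse 648, where the 9 genes summed to 868.1 and 852.9 RPKM (reads per kilobase of transcript, scaled to the mapped reads of the library). On the longest coding transcript of each gene the order of these libraries was reversed, at 448.1 RPKM in the ovary and 470.8 RPKM in the spermatogonia. Within each of the 4 mice with a spermatogonia library, all 9 genes exceeded there the mean log2(RPKM + 0.1) of that mouse's other sorted germ cells. The smallest difference was 0.08, for Myh11 in mouse 286, whose secondary spermatocytes held more Myh11 than its spermatogonia. Over all sorted libraries the difference passed the test for 8 of the 9 genes, beside 23.1% of all genes.

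Each seminiferous tubule is wrapped by flat peritubular myoid cells, which contract through smooth muscle actin and myosin and lay down matrix together with the Sertoli cells inside the tubule. Between the tubules lies a loose stroma of fibroblast-like cells, vessels, macrophages and Leydig cells, whose fibres are mainly type I and type III collagen. Decorin and lumican are small proteoglycans that bind those fibres, and PDGF receptor alpha marks stromal cells in many organs. In the ovary the stroma, the theca around growing follicles and the muscle of the vessel walls use the same genes.

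The groups were wildtype and Csmd1 knockout mice, and all 13 mice were untreated. The knockout is constitutive, with exon 1 of Csmd1 and part of intron 1 replaced by a lacZ and neomycin cassette. The labels give the strain as C57BL/6, while the methods describe a colony of mixed 129SvEvBrd:C57BL/6 background. Males used for sorting were 40 ± 1 days old by the methods, and the sample list gives 40 days for mice 178 and 351. No age was at hand for the other 11 mice, and the study also sequenced sexually immature testes. Mature and immature animals may therefore stand in the same group, and age cannot be told apart from the comparisons of genotype or of whole testis with sorted cells. One testis of a mouse was dissociated with collagenase and trypsin and used whole, and the other was dissociated and sorted by Hoechst fluorescence into 4 gates. There were 2 spermatogonia libraries per genotype, 2 wildtype and 4 knockout primary spermatocyte libraries, 2 and 3 secondary spermatocyte libraries, and 3 and 2 spermatid libraries. The whole tissues were 2 wildtype and 5 knockout testes and 1 wildtype ovary. No library holds isolated peritubular or stromal cells. In these bulk samples fewer cells of a type and less RNA per cell cannot be told apart.

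The 27 libraries whose depth could be estimated held an estimated 23811500 to 61657500 mapped reads, and the depth of the primary spermatocyte library of mouse 613 is unknown. The protamine Prm1, which marks late spermatids, was at 602.7 to 1922 RPKM in the whole testes of mice 178, 214 and 273 and at 0.439 to 1.16 RPKM in those of mice 269, 286, 308 and 648. In the spermatid gate Prm1 was at 929.9 to 2579 RPKM in mice 178, 351 and 544 but at 2.14 RPKM in mouse 286 and 0.579 RPKM in mouse 648. The spermatogonia library of mouse 544 held 1402 RPKM of Prm1, against 0.094 to 92.9 RPKM in the other 3. All 6 spermatogonial markers were higher in the spermatogonia gate (limma, adjusted p under 0.05). The longest coding transcript of Csmd1 did not separate the genotypes, at 0.025 and 0.264 RPKM in wildtype and 0.028 to 0.629 RPKM in knockout whole testes. A value over a whole transcript does not show the deleted part, so genotypes are those of the labels.

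The muscle-type genes each have 1 transcript in the table, on GRCm38 chromosome 19 from 34241090 to 34255590 for Acta2, chromosome 16 from 14194535 to 14291372 for Myh11 and chromosome 9 from 45929619 to 45936058 for Tagln, all on the minus strand. Dcn (97479609 to 97518143) and Lum (97565128 to 97572703) are neighbours on the plus strand of chromosome 10. Col1a1 lies on chromosome 11 from 94936224 to 94953042, Col1a2 on chromosome 6 from 4504814 to 4541544, Col3a1 on chromosome 1 from 45311538 to 45349706 and Pdgfra on chromosome 5 from 75152292 to 75198215. The values are sums over a gene's transcripts, and transcripts share reads. The 2 Dcn transcripts share 89.7% of their bases and had nearly equal values in every library (ratio 0.92 to 1.1), so the Dcn sum counts most reads more than once. The 2 Pdgfra transcripts share 97.5%, with a ratio of 0.78 to 1.06 in the 23 libraries compared, so their sum also counts most reads more than once. In the primary spermatocytes of mouse 613 they were at 1.32 and 1.68 RPKM. Sums, and shares of a sum, therefore overweight Dcn and Pdgfra. Levels of different genes, and the 2 classes, are compared on the longest coding transcript of each gene, a measure chosen after the data were seen.

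Ranked by the sum of the 9 genes, the testis libraries spanned from 3.45 RPKM in wildtype primary spermatocytes of mouse 178 to 852.9 RPKM in the spermatogonia of mouse 648. The spermatogonia of mice 286 and 178 held 225.5 and 138.5 RPKM, and with mouse 648 they made 3 of the 4 highest testis libraries. The fourth spermatogonia library, that of mouse 544, held 33.2 RPKM and ranked 10 of 27. Between these stood the secondary spermatocytes of mouse 286 with 144.1 RPKM and of mouse 648 with 136.1 RPKM. The whole testis of mouse 308 with 124.3 RPKM and the primary spermatocytes of mouse 613 with 59.3 RPKM followed. The whole testis of mouse 648 with 43.8 RPKM and the spermatids of mouse 286 with 33.3 RPKM also ranked above mouse 544. Ranked by the mean log2 level, the mean rank or the longest coding transcript, 2 spermatogonia libraries were among the 4 highest, as the whole testis of mouse 308 took the place of the spermatogonia of mouse 178. The spermatid gate held 3.54 to 7.67 RPKM in 4 mice and 33.3 RPKM in mouse 286.

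**Figure D1:**
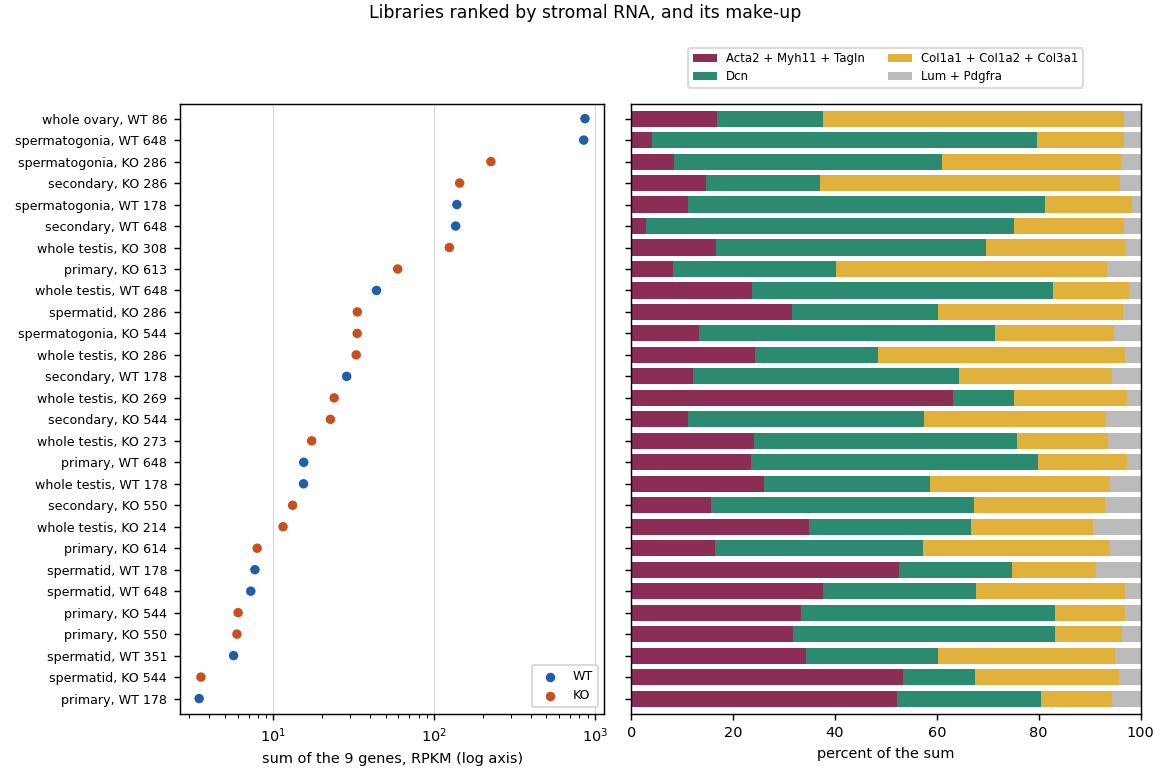
Sum of the 9 genes in each of the 28 libraries (left, RPKM on a log axis, 1 point per library, blue wildtype and orange knockout) and the percent of that sum taken by the muscle-type genes, Dcn, the collagens, and Lum with Pdgfra (right, bars from 0 to 100). Reads shared by transcripts of Dcn and Pdgfra count more than once, and those of the collagens can. The ovary and the spermatogonia of mouse 648 stand at the top with 868.1 and 852.9 RPKM, and the muscle-type share runs from 2.9% in the secondary spermatocytes of mouse 648 to 63.2% in the whole testis of mouse 269.

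The genes differed in how much each one contributed. On the longest coding transcript Dcn led in the spermatogonia of mouse 648 at 315.6 RPKM, followed by Col1a2 at 39.98, Col1a1 at 38.1, Col3a1 at 27.2 and Acta2 at 25.8 RPKM. Lum was the lowest of the fibroblast-type genes, with at most 2.71 RPKM in any testis library. Lum was listed at 0 in the primary spermatocytes of mice 178, 544 and 550 and in the whole testis of mouse 269, where a count of 3 reads would have given 0.0208 to 0.0376 RPKM, for counting error only. Myh11 was thinly covered in the primary spermatocytes, where 0.039 to 0.109 RPKM rested on an estimated 9 to 36 reads in the 5 libraries of known depth.

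The first comparison asked whether the stromal genes were enriched in the spermatogonia gate over the other sorted germ cells. Among the muscle-type genes, Acta2, the smooth muscle actin that marks myoid cells, was at 9.75 RPKM in spermatogonia of mouse 178, 25.8 in mouse 648, 13.5 in mouse 286 and 2.58 in mouse 544. In the other 16 sorted libraries it ranged from 0.396 to 13.1 RPKM with a median of 1.203. The ranges overlapped through mouse 286, whose secondary spermatocytes reached 13.1 RPKM. Acta2 rose in the spermatogonia gate by 2.61 ± 0.69 on the log2 scale (SE, limma adjusted p = 0.00868). Myh11, the smooth muscle myosin heavy chain, was at 1.79, 6.87, 3.11 and 0.587 RPKM in the spermatogonia of mice 178, 648, 286 and 544, and at a median of 0.359 RPKM (0.039 to 5.22) in the other sorted libraries. It rose by 2.40 ± 0.68 (limma adjusted p = 0.0125). Tagln, the actin-binding protein transgelin of smooth muscle, was flatter, at 4.02, 2.50, 2.66 and 1.25 RPKM in the same spermatogonia and 0.344 to 2.80 RPKM (median 1.27) elsewhere. Its difference of 0.97 ± 0.46 did not pass the test (limma adjusted p = 0.112).

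Dcn had the largest difference of the 9 genes. Decorin RNA was at 96.9 RPKM in the spermatogonia of mouse 178, 644.7 in mouse 648, 118.4 in mouse 286 and 19.3 in mouse 544, against a median of 5.03 RPKM (0.500 to 98.2) in the other sorted libraries. Only the secondary spermatocytes of mice 648 and 286, at 98.2 and 32.4 RPKM, came within the range of the spermatogonia. Dcn rose by 4.26 ± 0.80 on the log2 scale (limma adjusted p = 0.00096). Pdgfra, a receptor for PDGF on stromal cells, was at 2.01, 24.1, 6.24 and 1.38 RPKM in the spermatogonia of mice 178, 648, 286 and 544 and 0.058 to 4.22 RPKM (median 0.465) in the other sorted libraries. It rose by 2.75 ± 0.74 (limma adjusted p = 0.00962). Lum, the proteoglycan lumican, was at 0.248, 2.71, 2.48 and 0.349 RPKM in those spermatogonia against a median of 0.14 RPKM, and rose by 1.96 ± 0.71 (limma adjusted p = 0.041).

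The collagens rose together in the gate. Col1a1, the alpha 1 chain of type I collagen, was at 12.2 RPKM in spermatogonia of mouse 178, 74.2 in mouse 648, 35.4 in mouse 286 and 3.96 in mouse 544, and at a median of 1.33 RPKM (0.199 to 38.4) in the other sorted libraries. The highest of those others was again the secondary spermatocyte library of mouse 286. The log2 differences were 3.32 ± 1.0 for Col1a1 (limma adjusted p = 0.0173), 2.87 ± 0.89 for Col1a2, the alpha 2 chain (adjusted p = 0.0197), and 2.92 ± 1.07 for Col3a1, the type III collagen chain (adjusted p = 0.0444). Col1a2 was at 8.75, 43.7, 22.2 and 2.91 RPKM and Col3a1 at 2.82, 28.3, 21.6 and 0.891 RPKM in the spermatogonia of mice 178, 648, 286 and 544.

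**Figure D2:**
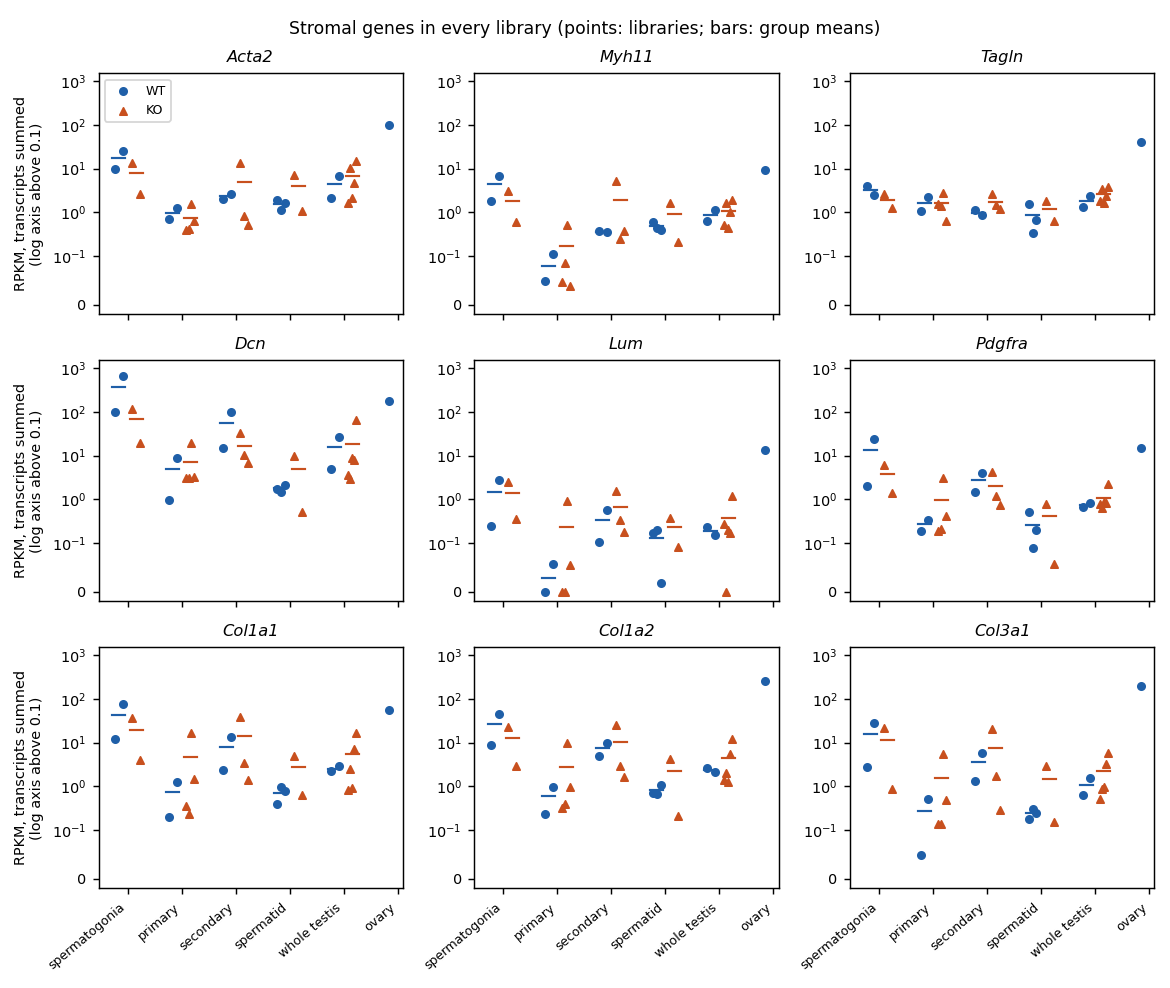
RPKM of each gene (vertical axis, transcripts summed, logarithmic above 0.1 RPKM) in every library by sorted stage, whole testis and ovary; circles are wildtype and triangles knockout libraries, and bars are group means. Dcn spans the widest range, from 0.500 to 644.7 RPKM in sorted cells, while Tagln stays between 0.344 and 4.02 RPKM.

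Altogether 8 of the 9 genes were called higher and 0 lower in the spermatogonia gate, where 23.1% of all 22713 genes tested were called higher and the median gene differed by 0.14. The median was 2.40 for the muscle-type and 2.89 for the fibroblast-type genes. Mice are the replicates here, and in a two-sided exact permutation test that moved the spermatogonia label among the sorted libraries of each mouse, p was 0.00521 for Acta2 and Dcn, the smallest value the 192 arrangements allow. It was 0.0104 for Myh11, Lum, Col1a1 and Pdgfra, 0.026 for Col3a1, 0.0365 for Col1a2 and 0.0677 for Tagln (exact permutation tests, n = 4 mice). The spermatogonia library was the highest sorted library in all 4 mice for Acta2, Dcn, Lum and Pdgfra, which is 4 of 9 genes beside 11.5% of all genes. The call rested heavily on single mice. Without mouse 648 only Dcn passed (1 of 9 genes, beside 9.36% of all genes). Without mouse 178 it was 4 of 9 (beside 16.3%), and without mouse 286 again 4 of 9 (beside 13.8%). When all libraries were quantile-normalized, 6 of 9 passed (beside 18.5%), as Lum and Col3a1 did not, and the share of higher genes among all calls moved from 67.5% to 51.4%.

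**Figure D3:**
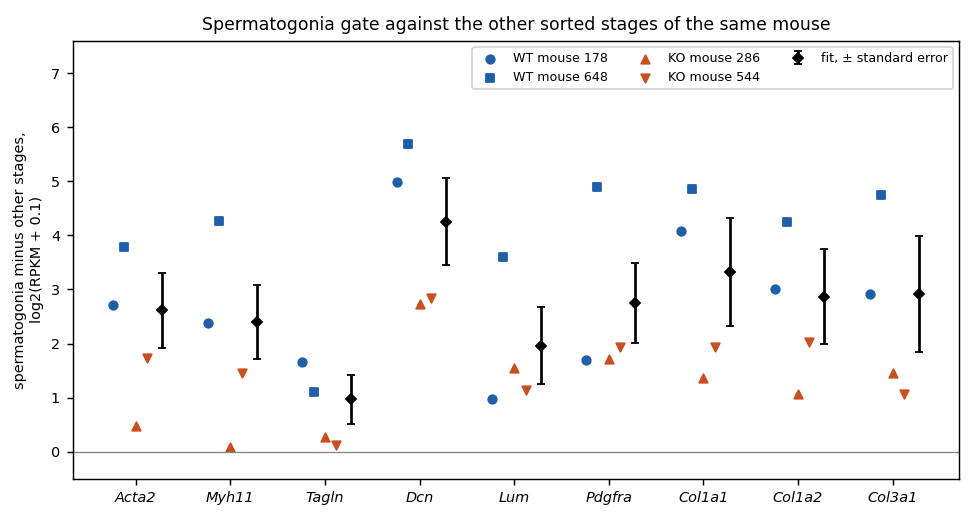
Difference between the spermatogonia library and the mean of the other sorted libraries of the same mouse, in log2(RPKM + 0.1), for each gene in 4 mice (coloured symbols), with the limma estimate over all sorted libraries and its standard error (black diamonds). All 36 points lie above 0, from 0.08 for Myh11 in mouse 286 to 5.69 for Dcn in mouse 648, and the points of the wildtype mice exceed those of the knockout mice for 7 of the 9 genes. Knockout mouse 286 has no primary spermatocyte library. Its mean is over 2 other libraries and that of each other mouse over 3, so the references differ.

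By genotype, 6 of 9 genes passed for the wildtype gate difference, beside 19.9% of all genes. For the knockout 0 of 9 passed in limma, beside 0% of all genes, of which 3520 had an unadjusted p under 0.05. The difference between them was not called for any of the 9 genes (limma adjusted p from 0.883 to 0.961). That interaction called 0% of all genes, with 1260 of 22713 at an unadjusted p under 0.05. The mice also differed in which gate held stromal RNA. In mouse 286 the secondary spermatocyte library held 97.6% of the spermatogonia level of Acta2, 167.9% of Myh11, 108.6% of Col1a1 and 115.8% of Col1a2, but 27.4% of Dcn. In mouse 648 it held 15.2% of Dcn, 18.5 to 22.8% of the collagens and 5.1% of Myh11. The secondary spermatocytes of mouse 286 thus carried the muscle-type and collagen RNAs at the level of its spermatogonia while Dcn was lower, and those of mouse 648 carried all 9 genes at a lower level. Tagln departed from the rest in the primary spermatocytes of mouse 648, where it stood at 91.1% of the spermatogonia level and the other 8 genes at 1.3 to 4.9%.

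Marker lists of other somatic cells, also chosen with earlier results known, are read against the same 23.1% of all genes called higher. Their counts come from the fit with all mice. The summed level of 8 Sertoli cell markers was 376.9 to 667.5 RPKM in spermatogonia and 29.5 to 751.6 RPKM in the other sorted libraries, and 3 of the 7 tested were called higher, among them Clu (2.20 ± 0.56, adjusted p = 0.0068) and Wt1 (2.29 ± 0.63, adjusted p = 0.0103). Rhox5 was at 0 in all 4 spermatogonia libraries and in 15 of the 16 others. The 6 macrophage markers summed to 9.92 to 59.8 RPKM against 1.44 to 17.0 RPKM, and 5 of 6 were called higher, among them Cd68 (2.15 ± 0.48) and Csf1r (1.99 ± 0.48). None was at 0 in the spermatogonia libraries. The 6 Leydig markers summed to 10.7 to 327.9 RPKM against 2.10 to 83.1 RPKM with 0 called. The spermatogonia of mouse 648 held the highest Leydig and macrophage sums, 327.9 and 59.8 RPKM. In mice 178, 286 and 544 the Leydig sum was higher in secondary spermatocytes (72.6, 14.7 and 65.3 RPKM) than in spermatogonia (15.1, 10.7 and 24.2 RPKM). The 6 endothelial markers summed to 6.66 to 15.3 against 2.49 to 35.9 RPKM with 2 called (Kdr and Cdh5). The 5 pericyte markers summed to 2.24 to 4.32 against 0.66 to 3.40 RPKM with 2 of 4 tested called (Notch3 and Rgs5). Kcnj8, a pericyte marker, was at 0 in 2 of the 4 spermatogonia libraries. Of the 6 spermatid markers 0 were called in limma, and their sum spread from 6.93 to 10789 RPKM within the 4 spermatogonia libraries. The part of any of these cells in the difference was not tested.

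Other genes of the same kinds were followed as fixed lists, chosen like the 9 genes with earlier results of these data known. Among 12 further smooth muscle genes 9 were called higher and 0 lower in the spermatogonia gate (median 1.98), led by Smtn (smoothelin, 2.93 ± 0.55), Myl9 (a myosin light chain, 2.64 ± 0.51) and Tpm1 (tropomyosin, 2.73 ± 0.56). Smtn was at 10.9 to 45.2 RPKM in spermatogonia and 0.494 to 19.6 RPKM elsewhere. Among 16 further fibroblast matrix genes 8 were higher and 0 lower (median 1.77), led by Fn1 (fibronectin, 3.93 ± 0.50), Fbln1 (fibulin, 3.71 ± 0.59) and Sparc (a collagen-binding protein, 2.57 ± 0.54). Fn1 was at 8.34 to 46.2 RPKM in spermatogonia and 0.313 to 5.89 RPKM elsewhere. All adjusted p-values of these 6 genes lay between 0.000127 and 0.00193 (limma). Estimates were below 0, and not called, for the smooth muscle gene Actg2 (-1.09) and the matrix genes Postn (-0.94) and Mfap5 (-0.76).

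Of 9 basement membrane genes 7 were called higher (median 2.23), led by Hspg2 (perlecan, 2.03 ± 0.45), Lamb1 (a laminin chain, 3.61 ± 0.92) and Nid1 (nidogen, 2.70 ± 0.72). Of 14 genes that modify, process or degrade collagen 10 were higher (median 2.02), led by the lysyl hydroxylases Plod1 (3.47 ± 0.46, adjusted p = 0.000133) and Plod2 (3.51 ± 0.69, adjusted p = 0.00126) and the prolyl hydroxylase subunit P4ha1 (2.56 ± 0.59, adjusted p = 0.00351), by limma. Of the 6 PDGF ligands and receptors, which include Pdgfra of the 9 genes, 3 were higher (median 0.89). These were the receptors Pdgfra, already counted above, and Pdgfrb (2.21 ± 0.46), and the ligand Pdgfb (1.65 ± 0.44). The differences of the other ligands, which did not pass, were 0.12 for Pdgfa, -0.33 for Pdgfc and -0.14 for Pdgfd. None of these 3 lists had a gene called lower. Among the collagen-modifying genes the estimate of Loxl1 was below 0, at -0.67, and was not called. These counts read against the same 23.1% of all genes. All list counts, those of the cell markers included, come from the fit with all mice. Their dependence on single mice was not tested, while the call of the 9 genes rested heavily on single mice.

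Muscle-type and fibroblast-type genes did not keep a constant ratio. On the longest coding transcript their mean log2 levels differed by -2.36 (muscle minus fibroblast) in the secondary spermatocytes of mouse 648 and by 2.50 in the whole testis of mouse 269. The muscle-type genes took 5.1% of the RNA of the 9 genes in the first and 74.4% in the second. Of the spermatogonia libraries, those of mice 648 (-1.83), 286 (-1.32) and 544 (-0.13) lay on the fibroblast side and that of mouse 178 on the muscle side (0.23). Secondary spermatocytes lay on the fibroblast side in 4 of 5 mice and at 0.11 in mouse 550. All 5 spermatid libraries lay on the muscle side, from 0.72 to 1.69. A side compares mean log2 levels and is not a share of RNA. The muscle-type genes took 19.4% of the RNA of the 9 genes in the spermatogonia of mouse 178, and 32.7% in the ovary. In total 10 testis libraries lay on the fibroblast and 17 on the muscle side, and the ovary lay near equality of mean log2 levels at 0.04. With transcripts summed the split was 15 to 12, as 5 testis libraries changed side, and the ovary lay at -1.04.

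**Figure D4:**
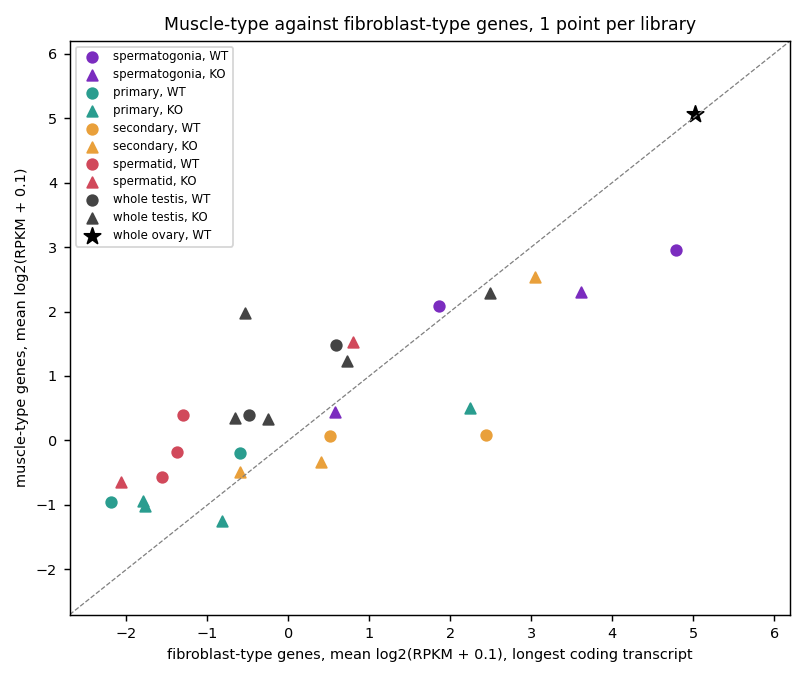
Mean log2(RPKM + 0.1) of the 3 muscle-type genes (vertical) against that of the 6 fibroblast-type genes (horizontal), on the longest coding transcript of each gene, 1 point per library, with colour for stage, circles for wildtype, triangles for knockout, a star for the ovary and a dashed line of equality. All 5 spermatid libraries lie above the line, 3 of 4 spermatogonia and 4 of 5 secondary spermatocyte libraries below it, the ovary at 0.04 close to it, and the whole testis of mouse 269 is farthest above at 2.50.

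Over the 27 testis libraries the fibroblast-type genes moved closely together, with Pearson's r on the log2 scale of 0.79 to 0.97 over 15 pairs (median 0.90). Acta2 and Myh11 had r = 0.94, whereas Tagln had r = 0.65 with Acta2 and 0.60 with Myh11. Between the classes r was 0.40 to 0.82 over 18 pairs (median 0.71). These values are a description, since libraries share mice and each value is a share of its library's reads. Among 14618 other genes of at least 1 RPKM on average, those most like the mean of the muscle-type genes were Nrip1 (r = 0.935), Gprasp1 (0.929), Armcx5 (0.918), Dock1 (0.909) and Timp3 (0.908). Those most like the mean of the fibroblast-type genes were Fmo1 (r = 0.970), Adamts5 (0.960), Ltbp4 (0.956), Ms4a4d (0.954) and Col6a1 (0.951).

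Whole testes held less of most stromal RNAs than the spermatogonia of the same mouse. Dcn in the whole testis was 5.2%, 6.7% and 4.0% of its level in the spermatogonia of mice 178, 286 and 648, while Tagln was at 32.2%, 89.6% and 95.8%. Against the average of the sorted stages, 0 of 9 genes were called in whole testis (limma, adjusted p = 1 for each), where 0.0176% of 22743 genes were called and 1261 had an unadjusted p under 0.05. The estimates were 0.79 ± 0.60 for Acta2, 0.58 ± 0.54 for Myh11 and 0.53 ± 0.36 for Tagln, and -0.27 to -0.05 for the 6 fibroblast-type genes. Within mice 178, 286 and 648 the exact permutation p lay between 0.45 and 0.89 (two-sided, n = 3 mice, smallest possible 0.01).

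The 7 whole testes differed widely among themselves. The sum of the 9 genes was 124.3 RPKM in mouse 308, 43.8 in mouse 648, 32.8 in mouse 286 and 23.9 in mouse 269, and 17.3, 15.4 and 11.5 RPKM in mice 273, 178 and 214. The 4 testes with the higher sums are those with Prm1 at 0.439 to 1.16 RPKM, and the 3 with the lower sums those with Prm1 at 602.7 to 1922 RPKM. The 8 Sertoli markers summed to 797.3 to 2009 RPKM in the former 4 and to 350.6 to 670.9 RPKM in the latter 3. Acta2 was at 15.0, 6.90, 4.58 and 10.05 RPKM in mice 308, 648, 286 and 269 and at 1.67 to 2.09 RPKM in the other 3. Dcn did not follow that order, since mouse 269 had the lowest Dcn of the 7 at 2.84 RPKM and mouse 273 had 8.93 RPKM. The part of the germ cell content in these levels was not tested.

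The single ovary exceeded every whole testis for all 9 genes and has no replicate check. Relative to the median whole testis it held 21.1-fold more Acta2, 9.22-fold more Myh11, 17.1-fold more Tagln, 22.7-fold more Dcn, 65.9-fold more Lum and 18.8-fold more Pdgfra. The collagen folds depended on the transcripts counted. They were 22.2 for Col1a1, 121 for Col1a2 and 204 for Col3a1 over all transcripts, and 11.7, 57.2 and 139 on the longest coding transcript. Short and retained-intron transcripts carried much of the ovarian sums, since Col1a2 reached 259.1 RPKM over its 7 transcripts and 64.7 RPKM on the longest. In the spermatogonia of mouse 648 the same values were 43.7 and 39.98 RPKM. On the longest transcript those spermatogonia exceeded the ovary for Dcn (315.6 against 89.0 RPKM), Pdgfra (12.03 against 7.51 RPKM) and Col1a1 (38.1 against 18.02 RPKM), and the ovary exceeded them for the other 6 genes.

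The last comparisons asked whether the genotypes differed. In whole testis Acta2 was at 2.09 and 6.90 RPKM in the wildtype and 1.67, 10.05, 2.08, 4.58 and 15.0 RPKM in the knockout mice 214, 269, 273, 286 and 308. Dcn was at 5.02 and 25.8 RPKM in the wildtype and 3.67, 2.84, 8.93, 7.91 and 66.0 RPKM in the same knockout mice. For both genes the wildtype values lay within the knockout range. Of the 9 genes 0 were called (limma adjusted p from 0.831 to 0.979), with log2 differences (knockout minus wildtype) from -0.39 ± 1.14 for Dcn to 0.61 ± 0.92 for Col3a1. The share of all genes called was 0%, with 2489 of 22760 at an unadjusted p under 0.05, and the median gene differed by 0.39. Exact permutation p lay between 0.381 and 0.905 (two-sided, 2 against 5 mice, smallest possible 0.0476). Within the libraries quantified together, which leaves out wildtype mouse 648, Dcn had a difference of 0.78 ± 1.61 and still 0 genes of the 9 were called.

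In sorted cells, averaged over the 4 stages, 0 of 9 genes were called between genotypes (limma adjusted p from 0.758 to 0.979), where 0.00881% of 22713 genes were called and 1761 had an unadjusted p under 0.05. The differences ran from -0.71 ± 0.66 for Dcn to 0.49 ± 0.58 for Lum, and the median gene differed by 0.22. Exact permutation p over mice lay between 0.554 and 1 (two-sided, 3 against 5 mice, smallest possible 0.0179). The spread within the knockout was wide. Col1a1 in secondary spermatocytes was at 38.4 RPKM in mouse 286 and 3.47 and 1.41 RPKM in mice 544 and 550, and in primary spermatocytes it was at 16.4 RPKM in mouse 613 and 0.239 to 1.47 RPKM in the other 3. With the quantification set as a term the differences moved, up to 2.24 ± 0.71 for Col3a1. Those of Acta2, Dcn, Col1a2 and Pdgfra changed sign, and 0 of 9 genes passed (limma adjusted p from 0.147 to 0.955).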

How the data were processed

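RNA-seq of 28 libraries from 13 mice was analysed. Paired-end reads of polyadenylated RNA were aligned by the authors with TopHat2 to an Ensembl mouse reference, and the deposited unit is RPKM, with 1 value per transcript and library. In 27 columns 93.1 to 94.5% of low values fell on whole reads (within 0.06 of a read, 12.0% by chance), which gave each library's depth. PEER, quantile normalization and PoissonSeq, named in the methods, are not visible in these 27 columns. They were not run, except quantile normalization as an alternative. In the column of mouse 613 12.5% of low values fell on whole reads, and whether it was adjusted is not known. Transcripts were summed per gene with GENCODE M21 (GRCm38), which matched 90432 of 94480 (95.7%). Transcripts without a value form 4 sets, taken as quantification sets, and counted as 0 in sums.

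Tests used limma 3.58.1 in R 4.3.3 on log2(RPKM + 0.1), so a fold change understates low genes, for genes with a mean of at least 0.1 RPKM, with Benjamini-Hochberg adjustment over all genes and a threshold of 0.05. Sorted libraries were fitted in 8 groups of genotype by stage, testis libraries in 10 groups, and whole testes alone. Exact permutation tests moved labels within or between mice (Python 3.11.15), 36 tests without adjustment. The fits were tested on simulated data. The genes named are the 9 genes, from each list the 3 with the smallest adjusted p in the spermatogonia comparison, and the 5 most like each class. Actg2, Postn, Mfap5 and Loxl1 were named after their values were seen. Members and lists were chosen with earlier results of these data known. Libraries of 1 mouse, paired by the mouse number in the labels, are not independent (correlation of 0.400 within mice in the sorted libraries, by limma's duplicateCorrelation), and the mouse was fitted as a block as an alternative. Marker lists covered 9 cell types. Of those not given in the results, primary spermatocyte markers had 0 genes higher and 1 lower (Ccna1) in the spermatogonia gate, spermatid markers 0 of 6 called, and granulosa and oocyte markers 1 higher (Zp3) and 1 lower (Gdf9) of 4 tested.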

Additional observations from a re-analysis of the deposited data

Results flagged for a closer look

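Within groups of 4 or more libraries, 10 of 18 gene and group combinations held 1 library far above the rest, where chance flags about 1 in 20. Among the 4 knockout primary spermatocyte libraries it was that of mouse 613 for 7 genes, at 0.506 RPKM for Myh11, 18.967 for Dcn, 0.897 for Lum, 16.385 for Col1a1, 9.615 for Col1a2, 5.587 for Col3a1 and 3.002 for Pdgfra. This library has values that do not fall on whole reads, an unknown depth, and 12787 transcripts without a value. Among the 5 knockout whole testes it was that of mouse 308 for 3 genes, at 66.019 RPKM for Dcn, 1.201 for Lum and 2.279 for Pdgfra. That testis had 0.439 RPKM of Prm1 and the highest sum of Sertoli markers of the 7 testes, 2009 RPKM. The 18 combinations are not independent, since genes moved together and all 10 flags came from the libraries of mice 613 and 308. The rate of 1 in 20 therefore cannot be set against 10 of 18.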

How the results depend on the processing

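In the spermatogonia gate 6 to 8 of 9 genes stayed past the threshold under every pseudocount, filter, scaling, block, batch term and transcript choice, and 1 to 8 when 1 mouse was left out (4 without mouse 178 or 286, 1 without 648). The mouse as a replicate block (correlation 0.400) left 8. With that block 6537 genes in all were higher and 3904 lower, against 5247 and 2530 without it. The count of spermatogonia libraries among the 4 highest was 3 and became 2 under the mean log2, the mean rank and the longest coding transcript, the last chosen after seeing the data. No alternative called any of the 9 genes in the other comparisons, so their reversals are changes of sign in uncalled estimates, and their cause was not tested. For whole testis minus sorted cells, a pseudocount of 0.01 RPKM gave 0.02 for Col1a2 and 0.08 for Col3a1. For genotype in whole testis, quantile normalization gave -0.18 for Acta2, -0.01 for Myh11, -0.34 for Col1a1 and -0.27 for Col1a2, libraries quantified together gave 0.78 for Dcn and 0.00 for Lum, and a pseudocount of 0.01 RPKM gave -0.26 for Lum. For genotype in sorted cells, quantile normalization gave -0.21 for Myh11 and -0.24 for Tagln, the block gave 0.08 for Col1a2 and 0.01 for Pdgfra, and the batch term gave 0.98 for Acta2, 0.55 for Dcn, 1.43 for Col1a2 and 0.80 for Pdgfra.

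Where leaving out a mouse left 1 library in a group, that library was assumed to vary like the others. Leaving out 1 mouse at a time, genotype differences in sorted cells ranged from -1.31 to 0.46 (Acta2), -0.79 to 0.93 (Myh11), -0.30 to 0.39 (Tagln), -1.77 to 0.39 (Dcn), -0.17 to 1.11 (Lum), -0.79 to 1.24 (Col1a1), -1.21 to 0.99 (Col1a2), -1.06 to 1.51 (Col3a1) and -0.95 to 0.50 (Pdgfra). In whole testis they ranged from -0.52 to 1.16 (Acta2), -0.26 to 0.50 (Myh11), -1.56 to 0.78 (Dcn), -0.31 to 0.61 (Lum), -0.37 to 0.67 (Col1a1) and -0.16 to 0.64 (Col1a2). Whole testis minus sorted cells ranged from -0.71 to 0.26 (Dcn), -0.68 to 0.11 (Lum), -0.73 to 0.14 (Col1a1), -0.58 to 0.41 (Col1a2), -0.67 to 0.48 (Col3a1) and -0.58 to 0.17 (Pdgfra).

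Counts over all genes moved in the gate comparison and outside it. The gate comparison called 5247 higher and 2530 lower, 4177 and 3954 when quantile-normalized, and 6683 and 3892 with the batch term. Whole testis minus sorted cells called 4 genes, and 0 with a pseudocount of 0.01 RPKM, 23 with the block and 56 without mouse 286. Genotype in sorted cells called 0 higher and 2 lower, 26 and 4 with the batch term, and 974 and 52 without mouse 286. Genotype in whole testis called 0, and 6 higher and 153 lower without mouse 648. There were few mice per genotype, and Lum and Myh11 rested on few reads in the primary spermatocytes. The part of either in the precision was not tested.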
